A study of Mus musculus with 6 samples.

Results

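The passenger arms of 4 let-7 hairpins, let-7b-3p, let-7d-3p, let-7e-3p and let-7i-3p, were followed in brown and subcutaneous fat of mice. They were taken by name from a table of 1251 miRNA arms, and all 4 had measurable values in all 6 libraries. The let-7 miRNAs are a conserved family that restrains growth and favours the differentiated state. Each hairpin is cut into a duplex of a 5p and a 3p arm, of which one is usually loaded into the silencing complex as the guide. The other, the passenger, is usually degraded. In let-7 the 5p arm is the usual guide, and its seed, the bases that pair with target transcripts, is shared across the family.

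The libraries came from C57BL/6J mice, an inbred laboratory strain, which were 5 to 6 weeks of age at the start and ate a high fat diet for 11 weeks. Fat supplied 45% of the energy in that diet, protein 20% and carbohydrate 35%, and per the series' design text EPA (eicosapentaenoic acid, an omega-3 fatty acid) was added at 6.75%. The BF-EPA group held 3 libraries of interscapular brown fat, a heat-producing depot, numbered 3, 4 and 5. The SUB-EPA group held 3 libraries of inguinal subcutaneous fat, a white depot, numbered 1, 3 and 8. Both groups carried the same strain, diet, EPA supplement and a fast of 4 hours before collection, so the comparison is between depots of EPA-fed mice. The labels do not say whether a library is 1 mouse or a pool, or whether depots shared mice, so p-values measure only the spread between these libraries. Libraries from mice on the diet without EPA are not analysed here.

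The values are log2 normalized abundances with a floor of 3.32 (10 on the linear scale), and they do not carry the read depth of each library. The series' design text gives about 13.8 M mapped reads per sample. The tissue labels were set beside miRNAs of each depot, a list chosen with earlier results of these data known. It is therefore not an independent check. Of the 269 tested miRNAs, 33.5% were called higher and 35.7% lower in brown fat. All 4 brown fat miRNAs examined (miR-193b-3p, miR-365-3p, miR-455-3p and miR-378a-3p) were higher in brown fat, and all 3 miRNAs of Hox clusters (miR-196a-5p, miR-196b-5p and miR-10b-5p) were higher in subcutaneous fat. In whole tissue, fewer cells of a type and less RNA per cell cannot be told apart.

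The members are shown with their seeds (bases 2 to 8 from the 5′ end) in capitals, since the seeds separate the passenger arms from each other and from the guides. The sequences are RefSeq's on GRCm38.p6, and each arm is 22 nucleotides long.
let-7b-3p (chr15:85707379-85707400, plus strand): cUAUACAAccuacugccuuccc
let-7d-3p (chr13:48536024-48536045, minus strand): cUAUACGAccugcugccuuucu
let-7e-3p (chr17:17830411-17830432, plus strand): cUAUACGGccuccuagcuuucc
let-7i-3p (chr10:122985642-122985663, minus strand): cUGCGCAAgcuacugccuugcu

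Their 5p partners on the same hairpins are shown for the contrast in seed, again in capitals.
let-7b-5p (chr15:85707325-85707346, plus strand): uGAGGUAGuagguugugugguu
let-7d-5p (chr13:48536078-48536099, minus strand): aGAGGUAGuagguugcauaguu
let-7e-5p (chr17:17830366-17830387, plus strand): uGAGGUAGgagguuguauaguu
let-7i-5p (chr10:122985698-122985719, minus strand): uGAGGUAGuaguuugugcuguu

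The 4 partners held 1 seed, GAGGUAG, whereas the 4 passenger arms held 4 different seeds. Of 1679 mouse mature miRNA names in the RefSeq table, none besides the member itself held the seed of let-7d-3p, let-7e-3p or let-7i-3p. The seed of let-7b-3p was shared with let-7a-1-3p, let-7c-2-3p, let-7f-1-3p and miR-98-3p, and these 4 were at the floor in every library. Between members, 11 to 18 of the 22 positions were identical, with let-7b-3p and let-7d-3p the most alike and let-7e-3p and let-7i-3p the least.

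These differences bear on how surely reads can be assigned. The closest mature miRNA to let-7b-3p differed by 2 bases (let-7f-1-3p) and that to let-7e-3p by 3 (let-7a-2-3p), and both of those were at the floor. The closest to let-7d-3p was let-7b-3p, at 4 bases, and let-7i-3p stood 6 bases from its closest. The partners were less distinct. Let-7b-5p differed from the abundant let-7c-5p by 1 base, and let-7e-5p from let-7a-5p by 1 base. It is not known how the authors' counting split reads between such near copies. This adds uncertainty to the levels of let-7b-5p and let-7e-5p. Let-7d-5p stood 2 bases from let-7a-5p, and let-7i-5p 2 bases from let-7g-5p, both of which were above the floor. Whether 5p levels were less certain than 3p levels as a whole was not tested.

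The 4 hairpins lie at unlinked places on GRCm38. Mirlet7b overlaps an exon of the noncoding RNA Lncppara on chromosome 15, with 621 bases between it and Mirlet7c-2. Mirlet7d overlaps an exon of the long noncoding RNA 6720427I07Rik on chromosome 13, near Mirlet7f-1 and Mirlet7a-1. Mirlet7e lies in an intron of the protein-coding gene Spaca6 on chromosome 17, between Mir99b and Mir125a. Mirlet7i overlaps an exon of the transcribed pseudogene D630033A02Rik on chromosome 10. Each of these genes is on the strand of its hairpin.

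Few let-7 passenger arms were above the floor in the deposited values. The table lists 12 3p arms of let-7 and miR-98 hairpins, and the 8 besides the members were at the floor in all 6 libraries, as were let-7j and let-7k. The guide arms, by contrast, were all above the floor (9 of 9). Let-7d-3p dominated the passenger arms, with 94.6% to 95.3% of the members' summed abundance above the floor in brown fat and 91.7% to 96.8% in subcutaneous fat. The 4 members together made up 0.81% to 0.885% of a brown library and 0.244% to 0.398% of a subcutaneous library. The 9 guide arms ran the other way, at 6.41% to 7.67% of a brown library and 31.4% to 32.0% of a subcutaneous one. These are shares of each library's summed normalized values above the floor and not of reads. Let-7c-5p held the highest value of the table, 18.67, in all 3 subcutaneous libraries, and miR-378a-3p held it in all 3 brown ones.

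Let-7b-3p, the passenger arm of let-7b, was more abundant in brown fat. Its log2 abundance was 9.71, 9.18 and 9.65 in BF-EPA libraries 3, 4 and 5, against 7.40, 7.25 and 7.11 in SUB-EPA libraries 1, 3 and 8. The groups were well apart, with every brown library above every subcutaneous one. Means were 9.52 ± 0.29 in brown fat and 7.25 ± 0.15 in subcutaneous fat (SD, n = 3 each). The difference of 2.27 ± 0.24 (SE) was 4.81-fold on the linear scale and passed the test (limma adjusted p = 0.00033 over 269 tested miRNAs).

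Let-7d-3p, the most abundant member, was likewise higher in brown fat. It stood at 14.31, 14.18 and 14.18 in BF-EPA libraries 3, 4 and 5, and at 12.40, 13.18 and 12.81 in SUB-EPA libraries 1, 3 and 8. The brown libraries were close together and above all subcutaneous ones, among which library 1 was lowest. It ranked 22, 24 and 24 among the miRNAs of the brown libraries and 47, 37 and 41 among those of the subcutaneous libraries. The difference was 1.43 ± 0.21 (SE), or 2.69-fold, from 14.22 ± 0.07 in brown and 12.80 ± 0.39 in subcutaneous fat (SD, n = 3 each; limma adjusted p = 0.00142).

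Let-7e-3p was a low passenger arm whose difference did not pass the test. Its values were 7.26, 7.44 and 7.40 in brown libraries 3, 4 and 5, and 5.72, 6.71 and 6.98 in subcutaneous libraries 1, 3 and 8. The brown values lay above the subcutaneous ones, but subcutaneous library 1 was far below the other two. The difference was 0.90 ± 0.40 (SE; limma adjusted p = 0.0839), and 0.52 without SUB-EPA library 1 (adjusted p = 0.143). Median-of-ratios scaling, which moved the median of all tested miRNAs from -0.45 to -0.04, gave 1.31 (adjusted p = 0.0234).

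Let-7i-3p, the other low passenger arm, varied within both depots. It stood at 6.23, 7.55 and 6.94 in brown libraries 3, 4 and 5, and at 8.22, 6.35 and 8.04 in subcutaneous libraries 1, 3 and 8. The groups overlapped, since subcutaneous library 3 was lower than 2 of the brown libraries. The difference was -0.63 ± 0.61 (SE; limma adjusted p = 0.387). It rested on single libraries, at -0.28 without SUB-EPA library 1 (adjusted p = 0.719) and -1.22 without SUB-EPA library 3 (adjusted p = 0.0657), and was not called without any one library (adjusted p 0.0657 to 0.757).

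Of the 4 members, 2 were thus called higher in brown fat and 0 lower. Across the 269 tested miRNAs 33.5% were called higher and 35.7% lower. The groups did not overlap for 3 members, all higher in brown fat, where 33.8% of the tested miRNAs were placed so. The median difference of the members was 1.16, beside -0.45 over all tested miRNAs. For a single arm, the exact two-sided permutation test cannot go below p = 0.1 with 3 libraries against 3. It gave 0.1 for let-7b-3p, let-7d-3p and let-7e-3p and 0.4 for let-7i-3p.

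**Figure D1:**
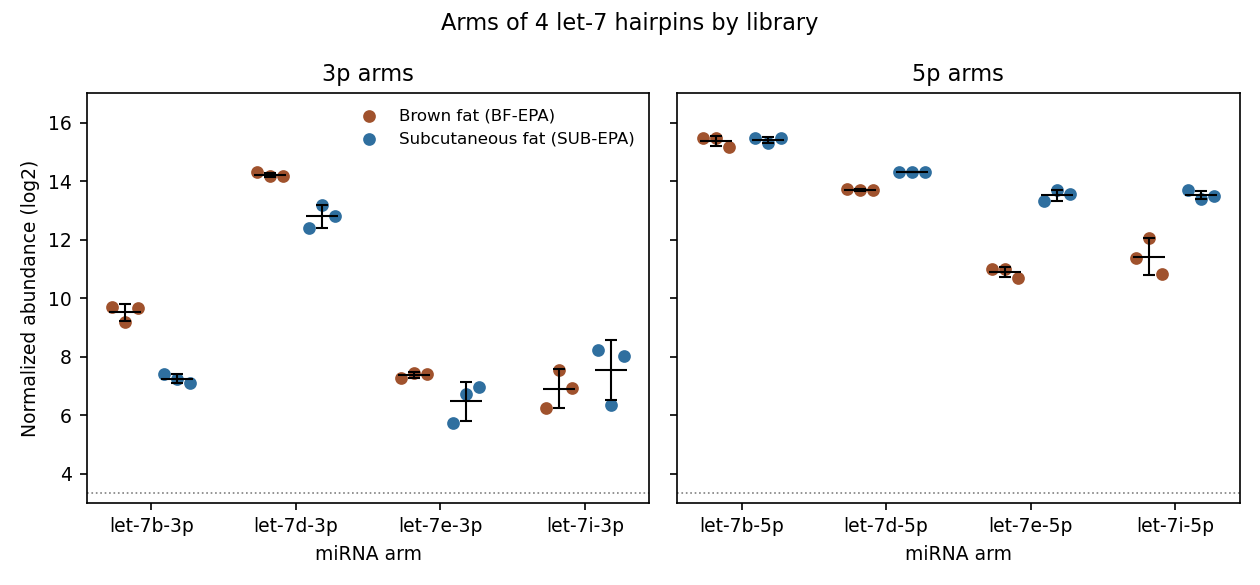
Log2 normalized abundance (vertical axis) of the 3p arms (left) and 5p arms (right) of 4 let-7 hairpins, with 1 point per library, brown fat left of subcutaneous fat, and the mean and SD of 3 libraries in black. The dotted line is the floor of the table at 3.32. Let-7b-3p and let-7d-3p are higher in brown fat, while let-7d-5p, let-7e-5p and let-7i-5p are lower there in these values. With the GC trend removed, let-7d-5p is higher and let-7i-5p is no longer called.

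The order of the members within a library was partly fixed. Let-7d-3p was the most abundant in all 6 libraries and stood 5.83 to 8.07 above the least abundant member. Let-7b-3p came next in the 3 brown libraries, with let-7e-3p and let-7i-3p below it in changing order. In subcutaneous fat let-7b-3p (7.25 ± 0.15) was above let-7e-3p (6.47 ± 0.66) in all 3 libraries, while let-7i-3p (7.53 ± 1.03; SD, n = 3) overlapped with both and had no fixed place.

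Most guide arms were lower in brown fat. Of the 9 let-7 and miR-98 guide arms, 8 were lower and 0 higher, with a median difference of -1.32, but 3 were lower and 5 higher with the GC trend of each library removed. The arm that was not called was let-7b-5p, the partner of the member that rose most. Let-7b-5p stood at 15.47, 15.47 and 15.16 in brown libraries 3, 4 and 5 and at 15.47, 15.30 and 15.47 in subcutaneous libraries 1, 3 and 8. The groups overlapped, and the difference was -0.05 ± 0.13 (SE; limma adjusted p = 0.768).

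Let-7d-5p had 13.74, 13.69 and 13.69 in the brown libraries and 14.31 in all 3 subcutaneous libraries. The groups did not overlap, and the difference was -0.60 ± 0.10 (SE; limma adjusted p = 0.00266). The identical subcutaneous values add no spread, so this SE and p can be too small. The call of let-7d-5p was lost with median-of-ratios scaling, at -0.18 (adjusted p = 0.208), and its direction turned with the GC trend removed.

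Let-7e-5p had 10.99, 10.99 and 10.70 in brown libraries 3, 4 and 5 and 13.32, 13.69 and 13.56 in subcutaneous libraries 1, 3 and 8. It was 6.19-fold lower in brown fat (log2 difference -2.63 ± 0.17 SE, limma adjusted p = 4.6e-05). Let-7i-5p had 11.38, 12.07 and 10.82 in the brown libraries and 13.69, 13.40 and 13.51 in the subcutaneous ones. It was 4.31-fold lower in brown fat (-2.11 ± 0.32 SE, limma adjusted p = 0.00149). Neither of these partners had overlapping groups. With the GC trend removed, let-7i-5p was no longer called (-0.71, limma adjusted p = 0.0919), and let-7e-5p stayed lower by less (-1.24).

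The balance between the arms of a hairpin was measured as the 3p minus the 5p log2 value within each library. Arms of equal length in 1 library need no scaling for length. A single scaling factor per library cancels in this difference. The deposited values, however, were partly shared between libraries by rank, with 64.0% of the 100 highest ranks at 1 value in all libraries. A step that sets values by rank can change the size of this difference, and its effect was not tested. The test of the balance between depots was run over 75 hairpins with both arms in the table.

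The let-7d hairpin had a different leading arm in each depot. It is printed with the 3p arm in capitals (Mirlet7d, chr13:48536012-48536114, minus strand).
let-7d hairpin: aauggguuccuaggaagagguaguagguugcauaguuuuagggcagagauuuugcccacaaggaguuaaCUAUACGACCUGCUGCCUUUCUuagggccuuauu

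The 3p minus 5p difference of let-7d was 0.57, 0.49 and 0.49 in brown libraries 3, 4 and 5, and -1.91, -1.13 and -1.50 in subcutaneous libraries 1, 3 and 8. The 3p arm thus led in every brown library and the 5p arm in every subcutaneous one. As a share of both arms, the 3p arm made up 58.5% to 59.7% in brown fat and 21.1% to 31.4% in subcutaneous fat. In these brown libraries the name passenger therefore goes against the measured levels of let-7d-3p. Whether the 2 arms were recovered equally well in the libraries was not tested, so the lead is one of measured values only. The shift between depots was 2.03 ± 0.24 (SE; limma adjusted p = 0.000346 over 75 hairpins).

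A leading 3p arm in all brown libraries with a leading 5p arm in all subcutaneous ones was found for 3 of the 75 hairpins (4.0%), let-7d, miR-1843b and miR-708. The reverse was found for 4 (5.33%), miR-193a, miR-210, miR-335 and miR-423. The hairpins other than let-7d were named after their values were seen, and let-7d was itself chosen with earlier results of these data known.

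The other 3 hairpins kept the 5p arm in the lead in every library, as 41.3% of the 75 hairpins did. For let-7e the 3p minus 5p difference was -3.73, -3.55 and -3.31 in brown libraries 3, 4 and 5, and -7.60, -6.98 and -6.59 in subcutaneous libraries 1, 3 and 8. The 5p arm thus led by 9.91- to 13.3-fold in brown fat and by 96.2- to 194-fold in subcutaneous fat. The shift of 3.53 ± 0.42 (SE) was the largest of the members and passed the test (limma adjusted p = 0.000346).

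For let-7b the difference was -5.75, -6.29 and -5.51 in brown libraries 3, 4 and 5, and -8.07, -8.05 and -8.36 in subcutaneous libraries 1, 3 and 8. The 5p arm led in both depots, by a smaller margin in brown fat. The shift was 2.31 ± 0.31 (SE; limma adjusted p = 0.000599).

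For let-7i the difference was -5.15, -4.51 and -3.88 in brown libraries 3, 4 and 5, and -5.47, -7.05 and -5.47 in subcutaneous libraries 1, 3 and 8. The groups were apart by a small gap only, and brown library 3 was close to subcutaneous libraries 1 and 8. The shift was 1.48 ± 0.57 (SE) and did not pass the test (limma adjusted p = 0.0618). It passed without BF-EPA library 3 (1.80, adjusted p = 0.0403) and with 40 added to the linear values (1.58, adjusted p = 0.00857). It was smaller without SUB-EPA library 3 (0.95, adjusted p = 0.175) or BF-EPA library 5 (1.17, adjusted p = 0.207), and reversed with the GC trend removed (-0.89, adjusted p = 0.255).

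So for 3 of the 4 hairpins the 3p arm was called higher relative to its 5p arm in brown fat, where 26.7% of the 75 hairpins were called in that direction and 18.7% in the other. All 4 had groups that did not overlap, with brown fat higher, as did 33.3% of the hairpins. The median shift over all 75 was 0.53. Let-7e ranked 8, let-7b 13, let-7d 16 and let-7i 23 of 75 in order of shift. The exact permutation p was 0.1 for each of the 4, the smallest it can give.

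**Figure D2:**
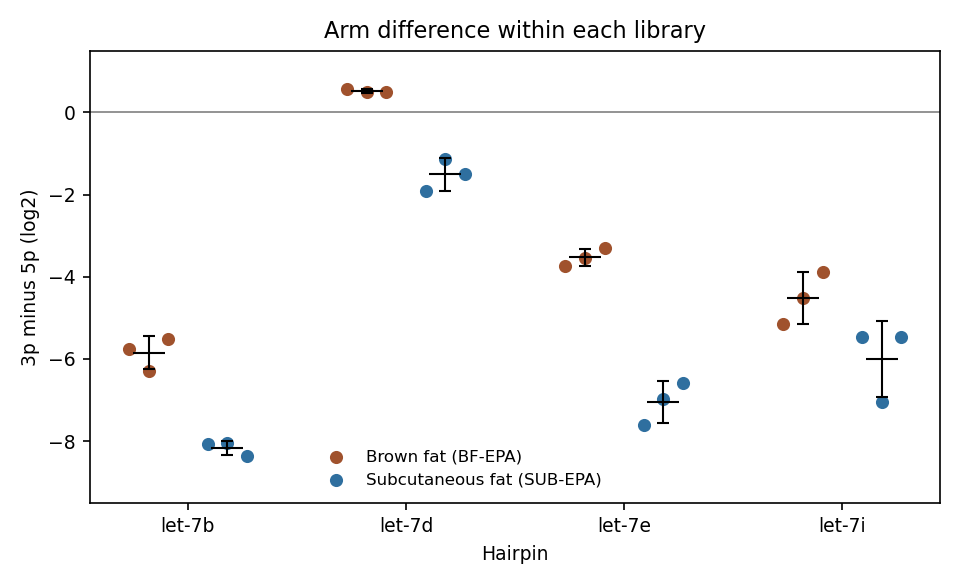
The 3p minus the 5p log2 abundance (vertical axis) of each let-7 hairpin, with 1 point per library, brown fat left of subcutaneous fat, and the mean and SD of 3 libraries in black. Points above the line at 0 have more 3p than 5p. Only the brown libraries of let-7d, at 0.49 to 0.57, lie above 0.

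**Figure D3:**
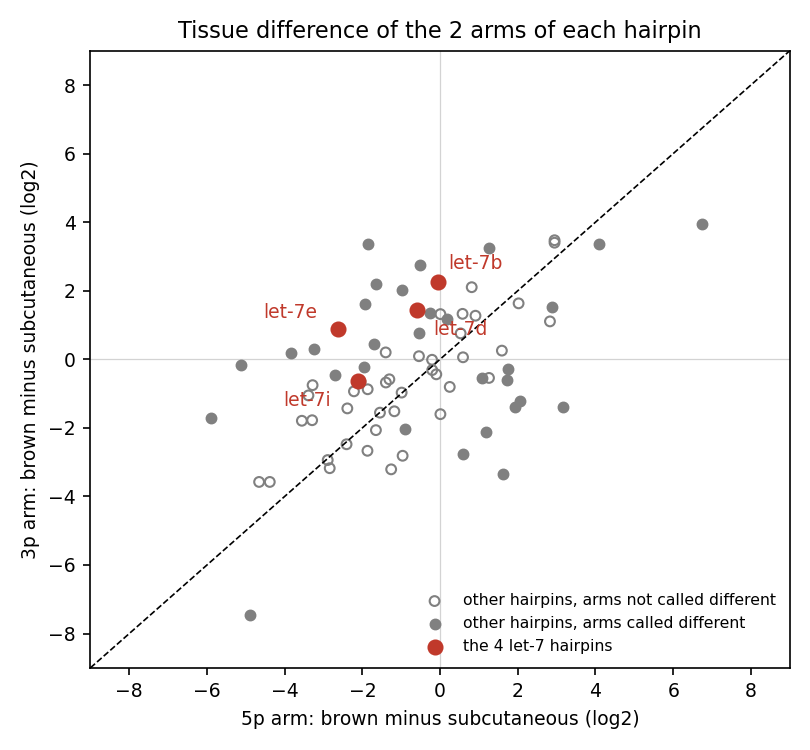
The brown minus subcutaneous log2 difference of the 5p arm (horizontal axis) and of the 3p arm (vertical axis) for 75 hairpins, with the 4 let-7 hairpins in red and filled grey points for other hairpins whose arms were called different. On the dashed line both arms differ equally between the depots. All 4 let-7 hairpins lie above it, and let-7e, with -2.63 for its 5p and 0.90 for its 3p arm, lies furthest from it.

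Base composition differed between the arms and moved with depot across the table. The members had a GC content of 50.0% (let-7b-3p and let-7d-3p), 54.5% (let-7e-3p) and 59.1% (let-7i-3p), and their partners 40.9% to 45.5%. Over the 229 tested miRNAs with a mature sequence, log2 abundance rose with GC content by 0.17 to 0.262 per 10 percentage points in the brown libraries. In the subcutaneous libraries that slope was -0.91 to -1.22. Among the members themselves the order was the opposite, since let-7i-3p, with the highest GC content, was the only one whose difference was below 0.

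With each library's GC trend removed, let-7b-3p (2.47, limma adjusted p = 0.000287) and let-7d-3p (1.64, adjusted p = 0.000947) were still called higher in brown fat. Let-7e-3p stood at 0.51 (adjusted p = 0.281) and let-7i-3p at -1.60 (adjusted p = 0.0626). Within a library the correction depended only on GC content, so arms of equal GC content moved alike. More calls changed among the partners than among the members. Let-7d-5p turned to 0.79 (adjusted p = 0.00284), let-7b-5p to 0.76 (adjusted p = 0.00447), and let-7i-5p was no longer called (-0.71, adjusted p = 0.0919). Let-7e-5p was still called lower in brown fat, by a smaller difference (-1.24 in place of -2.63, adjusted p = 0.00294).

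The shift in arm balance was smaller under this correction for let-7e (1.75, adjusted p = 0.00672), let-7d (0.84, adjusted p = 0.00533) and let-7b (1.72, adjusted p = 0.00157), and all 3 calls were kept. The leading arm of let-7d still differed between the depots, with 0.37, 0.25 and 0.34 in brown libraries 3, 4 and 5 and -0.80, -0.30 and -0.47 in subcutaneous libraries 1, 3 and 8. The median shift over the hairpins that could be corrected was then 0.07.

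**Figure D4:**
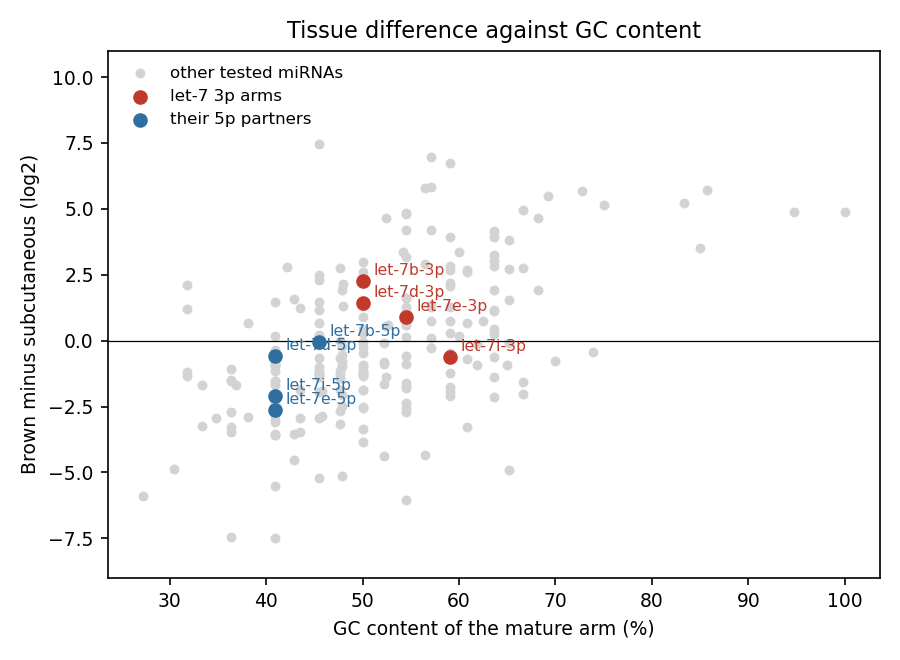
The brown minus subcutaneous log2 difference (vertical axis) against the GC content of the mature arm in percent (horizontal axis) for 229 tested miRNAs, with let-7 3p arms in red and their 5p partners in blue. The 3p arms have 50.0% to 59.1% GC and the partners 40.9% to 45.5%. Differences tend to be larger at higher GC content, but not among the 4 red points.

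Arms encoded next to the members did not share 1 direction. For let-7b and let-7d, the 3p arms of the adjoining let-7c-2, let-7a-1 and let-7f-1 hairpins were at the floor in every library. The 5p arms of these hairpins, counted above among the guide arms, were lower in brown fat in the deposited values. The differences were -2.755 for let-7c-5p, -2.70 for let-7a-5p and -1.19 for let-7f-5p. Each of these names can also stand for copies from other hairpins. Next to let-7e, 3 arms were higher in brown fat and 1 lower. MiR-125a-5p (0.91 ± 0.14 SE, limma adjusted p = 0.00183), miR-125a-3p (1.27 ± 0.34 SE, adjusted p = 0.0154) and miR-99b-5p (1.18 ± 0.17 SE, adjusted p = 0.00118) were higher. MiR-99b-3p was lower (-2.13 ± 0.28 SE, adjusted p = 0.000795). Within this cluster the arm balance shifted by 3.53 for let-7e, by -3.31 ± 0.32 (SE) for miR-99b (adjusted p = 0.000211) and by 0.36 ± 0.36 (SE) for miR-125a (adjusted p = 0.435). With the GC trend removed, 1 of the 4 arms beside let-7e was called higher.

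The miRNAs with the most similar profiles were found by the root mean square difference of centred log2 values over the 6 libraries. For let-7d-3p these were miR-674-3p (0.079), miR-151-3p (0.13) and miR-485-3p (0.157), and for let-7b-3p miR-107-3p (0.268), miR-210-5p (0.291) and miR-378b (0.292). Let-7e-3p was closest to miR-204-5p (0.244), its neighbour miR-125a-3p (0.25) and miR-151-3p (0.281). The closest to let-7i-3p were less alike, at 0.398 for miR-5099, 0.495 for miR-331-3p and 0.571 for miR-148b-3p. These are descriptions over 6 libraries in 2 depots.

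MiRNAs of other cell types also differed between the depots. The summed linear abundance of 5 stromal miRNAs was 25530 to 30800 in brown and 90590 to 113700 in subcutaneous fat, with 4 of 5 called lower and 0 higher in brown fat. That of the endothelial miR-126 arms was 3224 to 3803 in brown and 9901 to 12590 in subcutaneous fat, with both arms called lower in brown fat. Myeloid miR-223-3p was at 0.0 to 20.1 above the floor in brown fat and 434 to 912 in subcutaneous fat. Lymphocyte miR-150-5p was higher in brown fat, with miR-142-3p and miR-155-5p at the floor. Red cell miRNAs summed to 209700 to 210000 in brown and 19490 to 36270 in subcutaneous fat, with miR-144 at the floor. Of the 2 tested, 1 was called in each direction, with miR-486-5p higher (2.95) and miR-451a lower (-1.49) in brown fat. The sum therefore does not stand for 1 shared direction.

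Skeletal muscle miRNAs ranged from 1264 to 151200 in brown and from 1697 to 123100 in subcutaneous fat, with 0 of 3 tested called and miR-1a-3p at the floor. Epithelial ones ranged from 267 to 387 in brown and from 299 to 39190 in subcutaneous fat, with 0 of 4 tested called. Liver miR-122-5p stood at 38.5 to 996 above the floor in brown fat and at the floor in subcutaneous fat, and both neuronal miRNAs were at the floor. The part of these cell types in the let-7 differences was not tested.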

How the data were processed

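Per the labels' protocols, total RNA was isolated from frozen tissue and small RNA libraries were made with an Illumina protocol. The series' design text states that about 13.8 M reads per sample were mapped to mm10, that counts were scaled to the usable reads, and that 40 were added. The sources used here name no aligner and no miRNA annotation. The deposited file gives the authors' log2 values for 1251 arms, 910 of them at the floor throughout. The offset of 40 does not show in it. Of the 100 highest ranks, 64.0% held 1 value in all libraries (tolerance 1e-06), so every difference is relative and column totals do not show depth. Values near the floor understate differences.

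Tissue differences (brown minus subcutaneous) were tested on the deposited values with limma (version 3.58.1, under R 4.3.3), whose variance prior followed the mean. P-values were adjusted by Benjamini-Hochberg, with calls at 0.05. The 269 miRNAs tested averaged at least 10 parts in 1e6 of the library total above the floor. The same model was fitted to the 3p minus 5p differences of 75 hairpins with arms of the same name, at least 1 arm tested and the other above the floor somewhere. Only the tissue fit was tried on simulated data, which had independent normal noise and no values shared by rank. That trial does not cover the arm fit. Exact permutation tests used scipy 1.17.1 (Python 3.11.15).

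Members and lists were chosen with earlier results of these data known. The named miRNAs are the members, their partners, the guide arms, arms encoded beside members, depot miRNAs and the 3 closest profiles per member. Alternatives changed the value scale, filter, scaling, variance model and hairpins fitted, removed GC trends (mature sequences matched for 85.1% of tested miRNAs), or left out libraries. Annotation came from GENCODE M21 and RefSeq on GRCm38.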

Additional observations from a re-analysis of the deposited data

Results flagged for a closer look

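The 3p minus 5p difference, the same contrast in both depots, differed between brown and subcutaneous fat by the test of that difference for let-7b (2.31), let-7d (2.03) and let-7e (3.53). For let-7d its sign also differed, with 3p above 5p in 3 of 3 brown libraries and below it in 3 of 3 subcutaneous libraries. Samples were not screened for outliers, since each group holds 3 libraries.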

How the results depend on the processing

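Of 304 values recomputed for 20 results, 289 kept their direction and side of the threshold (counts: within 1.5 times). The calls of let-7b-3p (2.01 to 2.68) and let-7d-3p (1.23 to 1.84) held in all 15 alternatives each. The arm shifts of let-7b (1.72 to 2.53), let-7d (0.84 to 2.22) and let-7e (1.75 to 3.76) held in all 16. Not every alternative could move a value, so these counts overstate how much was checked. Median-of-ratios scaling cannot change an arm shift. A changed filter, variance model or set of fitted hairpins can change only an adjusted p, and not the size of a difference. Median-of-ratios scaling gave 1.31 for let-7e-3p, now called, -0.18 for let-7d-5p, no longer called, and 0.37 for let-7b-5p, which reversed. Removing the GC trend gave 0.76 for let-7b-5p and 0.79 for let-7d-5p, both reversed, -0.71 for let-7i-5p, no longer called, and -0.89 for the arm shift of let-7i, reversed. It also gave 5 guide arms called higher and 3 lower (0 and 8 as reported) and 1 arm beside the members called higher (3 as reported). Adding 40 gave 1.58 for the arm shift of let-7i, now called. The stricter filter, which tested 157 miRNAs, called 58 higher (90 as reported) and 0 arms beside the members lower (1 as reported). Let-7e-3p and let-7i-3p were not tested under that filter. Leaving out 1 library moved let-7i-3p between -1.22 and -0.28, let-7e-3p between 0.52 and 1.15, let-7b-5p between -0.10 and 0.0565 (reversed without BF-EPA library 5) and the arm shift of let-7i between 0.95 and 1.80. The cause of these changes was not tested. Counts under the stricter filter are over a smaller set of tested miRNAs. No paired analysis was possible, because the labels do not say which libraries, if any, came from the same mouse. The groups share only 1 replicate number. The normalized values cannot be turned back into reads per library, so no counting error is given for let-7e-3p and let-7i-3p, the lowest members.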
